A study of Mus musculus with 15 samples.

Results

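The nuclear genes for the proteins of the mitochondrial ribosome were followed in adipocyte precursor cells of mouse pups whose milk had either a high or a low n6/n3 ratio of polyunsaturated fatty acids. A gene was taken as a member when its Ensembl ID mapped to a protein-coding symbol that starts with Mrpl or Mrps and a number, which left pseudogenes out. This gave 78 members, 49 named for the large subunit and 29 for the small subunit, among 23347 genes in the progenitor table and 23118 in the preadipocyte table. All 78 were measured in both tables and all 78 passed the filter on low values, a mean of at least 10 normalized counts. The lowest value of any member in any library was 49.5.

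All pups were wildtype C57Bl/6 mice that had been cross-fostered, so that the milk they received was the variable. The labels give the exposure as 12 days in one protocol and as 10 days in another. Subcutaneous adipose precursors were sorted by flow cytometry into progenitors (CD24+) and preadipocytes (CD24-), as the submitters name them, and RNA was sequenced in bulk. Progenitors gave 4 high-ratio libraries (1015, 1017, 1018 and 1019) and 4 low-ratio libraries (108, 114, 119 and 133). Preadipocytes gave 3 high-ratio libraries (1015, 1017 and 1019) and 4 low-ratio libraries (108, 114, 119 and 133). For the 4 preadipocyte libraries on low-ratio milk the source name says high and the characteristics say low, and the characteristics were used. The labels do not say how many pups went into a library, so every p-value measures the spread between these libraries, part of which may be technical.

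The mitochondrial ribosome translates the few membrane subunits of the respiratory chain that the mitochondrial genome still encodes. Its ribosomal RNAs are transcribed inside the organelle, while its proteins are made in the cytosol from nuclear genes, imported, and assembled on those RNAs. The small subunit reads the messenger RNA, and the large subunit joins amino acids and passes the nascent chain to the inner membrane. By descent the members fall into 48 with a counterpart in the bacterial ribosome (30 large, 18 small) and 29 found only in mitochondria (19 large, 10 small). Mrps36 stands apart, since it is now known as a component of the 2-oxoglutarate dehydrogenase complex. Structures also place Mrps30 and Mrps18a in the large subunit despite their names, and they are counted here by name.

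Depth, estimated from the worth of 1 read in each library, ran from 34.4 to 59.1 M reads in progenitors and from 14 to 69.2 M in preadipocytes (M, mega). The 9 precursor markers, led by Cd34, Pdgfra and Ly6a, were all present, with summed levels of 137063 to 175293 normalized counts in progenitors and 120347 to 152480 in preadipocytes, and the milk groups overlapped in that sum. None of the 9 passed the test, but in preadipocytes Ly6a lay lower on low-ratio milk with groups apart (-0.49), and Cd34 (0.19) and Pdgfrb (0.28) lay higher with groups apart. Cd24a, the gene of the sorting marker, had 1836 to 2676 normalized counts in progenitors and 561.6 to 719.8 in preadipocytes, on scales normalized separately. In preadipocytes the 5 erythroid markers summed to 1991 to 7664 normalized counts on high-ratio milk and 1184 to 2282 on low-ratio milk. The 6 endothelial markers summed to 6722 to 8700 on high-ratio and 8709 to 12538 on low-ratio milk, so the sums did not overlap. Tek was higher on low-ratio milk (0.61, adjusted p 0.0469), while the other 5 overlapped between milks and did not pass, with values below 0 for Pecam1, Kdr, Emcn and Cldn5 (-0.37 to -0.15) and 0.23 for Cdh5. No erythroid or endothelial marker was at 0, and the part of these markers in the results below was not tested. In bulk RNA, fewer cells of a type and less RNA per cell cannot be told apart.

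Many nuclear genes of mitochondrial proteins carry binding sites for ETS-family factors, NRF1 and YY1 near their starts. RefSeq promoter windows (GRCm38.p6, 250 bases before to 50 bases after the start) were matched by symbol for 69 of the 78 members. The 5 windows below belong to the members that passed the test in preadipocytes, and they are shown because those members carry the main comparison. They lie at chr10:95501900-95502199 (minus strand, Mrpl42), chr3:32736706-32737005 (minus, Mrpl47), chr5:31613701-31614000 (plus, Mrpl33), chr13:14612988-14613287 (minus, Mrpl32) and chr6:39810887-39811186 (minus, Mrps33). Each is written 5′ to 3′ on the strand of the gene, with matches to the searched letters in capitals.
Mrpl42: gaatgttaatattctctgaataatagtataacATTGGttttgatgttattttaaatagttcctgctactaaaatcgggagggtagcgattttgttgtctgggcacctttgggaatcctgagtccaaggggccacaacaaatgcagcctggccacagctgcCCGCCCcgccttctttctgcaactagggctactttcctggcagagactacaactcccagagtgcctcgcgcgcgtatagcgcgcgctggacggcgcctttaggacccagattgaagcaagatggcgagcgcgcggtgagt
Mrpl47: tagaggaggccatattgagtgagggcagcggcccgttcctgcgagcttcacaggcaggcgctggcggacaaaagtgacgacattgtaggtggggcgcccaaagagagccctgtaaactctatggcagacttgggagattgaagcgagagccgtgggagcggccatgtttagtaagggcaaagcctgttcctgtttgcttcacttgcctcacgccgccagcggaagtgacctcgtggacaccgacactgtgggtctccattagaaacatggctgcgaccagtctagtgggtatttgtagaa
Mrpl33: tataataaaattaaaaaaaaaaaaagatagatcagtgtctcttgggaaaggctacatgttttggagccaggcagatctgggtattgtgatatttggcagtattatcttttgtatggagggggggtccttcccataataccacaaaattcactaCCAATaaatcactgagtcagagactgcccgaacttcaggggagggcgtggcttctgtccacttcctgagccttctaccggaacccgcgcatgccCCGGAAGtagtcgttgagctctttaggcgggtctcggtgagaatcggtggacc
Mrpl32: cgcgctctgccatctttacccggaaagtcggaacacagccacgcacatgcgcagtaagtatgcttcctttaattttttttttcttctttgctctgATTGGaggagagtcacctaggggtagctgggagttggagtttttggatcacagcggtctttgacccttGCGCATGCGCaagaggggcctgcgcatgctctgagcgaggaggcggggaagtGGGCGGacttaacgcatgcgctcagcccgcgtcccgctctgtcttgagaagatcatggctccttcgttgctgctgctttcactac
Mrps33: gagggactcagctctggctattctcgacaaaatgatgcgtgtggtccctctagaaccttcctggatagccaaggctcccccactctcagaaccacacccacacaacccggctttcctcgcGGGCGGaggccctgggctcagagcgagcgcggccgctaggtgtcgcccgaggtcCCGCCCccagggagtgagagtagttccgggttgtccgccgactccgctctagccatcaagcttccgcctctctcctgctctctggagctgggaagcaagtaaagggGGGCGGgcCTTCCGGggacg
The Mrpl33 window holds the ETS letters CCGGAAG starting 3 bases before the start. The Mrps33 window holds them on the other strand from base 39 after the start, beside 3 GC boxes. The Mrpl32 window holds the NRF1 letters (GCGC, any 2 bases, GCGC) from 87 bases before the start. Mrpl42 shows only a CCAAT box and a GC box, and the Mrpl47 window matches none of the 6 motifs searched.

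The ETS letters were found on either strand in 26 of the 69 members with a window (37.7%). They were in 8.86% of all 32851 windows and in 19.4% of 10412 protein-coding genes tested in preadipocytes. Members (75 windows) and tested genes (13343 windows) were counted once per gene, by a match in any window. All windows were counted singly, so that share is in another unit. The YY1 letters ATGGCGG stood in 18.8% of members, 4.05% of all windows and 9.09% of the tested coding genes. The NRF1 letters stood in 20.3%, 6.23% and 14.6%. The general promoter elements did not follow that order. The GC box GGGCGG was in 49.3% of members, 35.7% of all windows and 68.3% of tested coding genes. In the same order, CCAAT was in 39.1%, 37.4% and 43.2%, and TATAAA in 7.25%, 13.6% and 9.09%. The motifs were searched independently, so their matches may overlap, and a match describes letters, not a bound site. Among the 27 members with a window and an unadjusted p under 0.05 toward lower values in preadipocytes, 33.3% held the ETS letters, 18.5% the NRF1 letters and 22.2% the YY1 letters, beside 40.5%, 21.4% and 16.7% of the other 42. The GC box was in 51.9% and 47.6%, CCAAT in 37% and 40.5%, and TATAAA in 7.41% and 7.14%, with no test.

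Members often lay close to the start of another gene. For 33 of 78 (42.3%), a protein-coding gene on the opposite strand started within 1000 bases, against 15.5% of the 13345 tested coding genes. Mrps11 and Mrpl46 form such a pair with each other, with 412 bases between their starts. Mrpl32 starts 75 bases from Psma2, a proteasome subunit gene, and Mrps12 starts 172 bases from Sars2, the mitochondrial seryl-tRNA synthetase gene. Mrpl47 starts 615 bases from Ndufb5, which encodes a subunit of respiratory complex I. The starts in these distances are the outer ends of the genes in GENCODE M21. They can differ from the RefSeq starts of the windows above, as they do for Mrpl47 and Mrpl33.

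Levels were compared between genes as normalized counts per kb of transcript. In progenitors the large subunit genes had a median of 438.5 per kb and ranged from 52.97 (Mrpl1) to 2577 (Mrpl52). The small subunit genes had a median of 402.5 per kb and ranged from 47.65 (Mrps22) to 1493 (Mrps21). In preadipocytes, whose table was normalized on its own, the medians were 473.9 per kb for the large and 411.2 for the small subunit. Within progenitors the highest and lowest levels per kb stood apart by factors of 48.65 in the large subunit and 31.32 in the small.

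With the median transcript length of each gene, Mrpl52 was the highest member in both, at 3228 per kb in preadipocytes. It was followed by Mrps21, Mrpl42 and Mrpl54 in progenitors, at 1493, 1113 and 1086 per kb. In preadipocytes it was followed by Mrpl42, Mrps21 and Mrpl20, at 1727, 1634 and 1510 per kb. The other small subunit genes with high levels per kb were Mrps18a (971) and Mrps5 (878) in progenitors and Mrps33 (1034) and Mrps24 (923) in preadipocytes. At the low end stood Mrpl1, Mrpl16, Mrps22 and Mrps31 in both populations, with Mrpl47 and Mrps30 beside them in progenitors and Mrpl44 and Mrps2 in preadipocytes. The ranks depended on that length. With the longest transcript of each gene, the medians fell to between 164.6 and 298.8 per kb, and Mrps21 (1315) stood above Mrpl52 (1258) in progenitors. Mrpl42 then had 226.2 and 351.1 per kb in progenitors and preadipocytes, and the lowest large subunit genes were Mrpl47 (35.5) in progenitors and Mrpl19 (42.64) in preadipocytes.

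**Figure D1:**
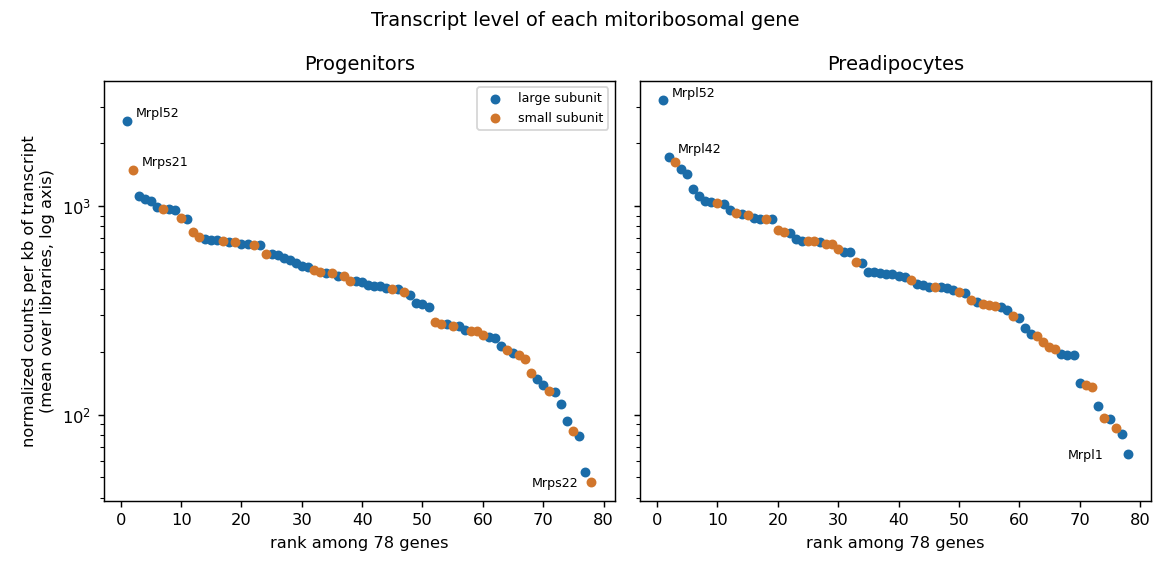
Mean normalized counts per kb of median transcript length (log axis) of the 78 genes, ranked from highest to lowest, in progenitors (left) and preadipocytes (right), whose tables were normalized separately; blue points are large and orange points small subunit genes. Mrpl52 leads in both panels, at 2577 and 3228 per kb.

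Milk was compared first in preadipocytes, where the members' values lay mostly below 0. Fold changes are low-ratio minus high-ratio milk on the log2(normalized count + 1) scale, tested with limma and adjusted over all genes. Of 78 members, 5 were lower on low-ratio milk at an adjusted p under 0.05 (6.41%) and 0 were higher, against 2.35% of all 15893 genes lower and 0.535% higher. At an unadjusted p under 0.05, 30 members were lower (38.5%, against 11.2% of all genes) and 3 were higher (against 10.6%). In 25 members (32.1%, against 11% of all genes) every low-ratio library lay below every high-ratio library, and in 4 members (against 10.1%) every one lay above. Values lay below 0 in 58 members (74.4%, against 45.9% of all genes). The median fold change was -0.22 over members and 0.04 over all genes.

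**Figure D2:**
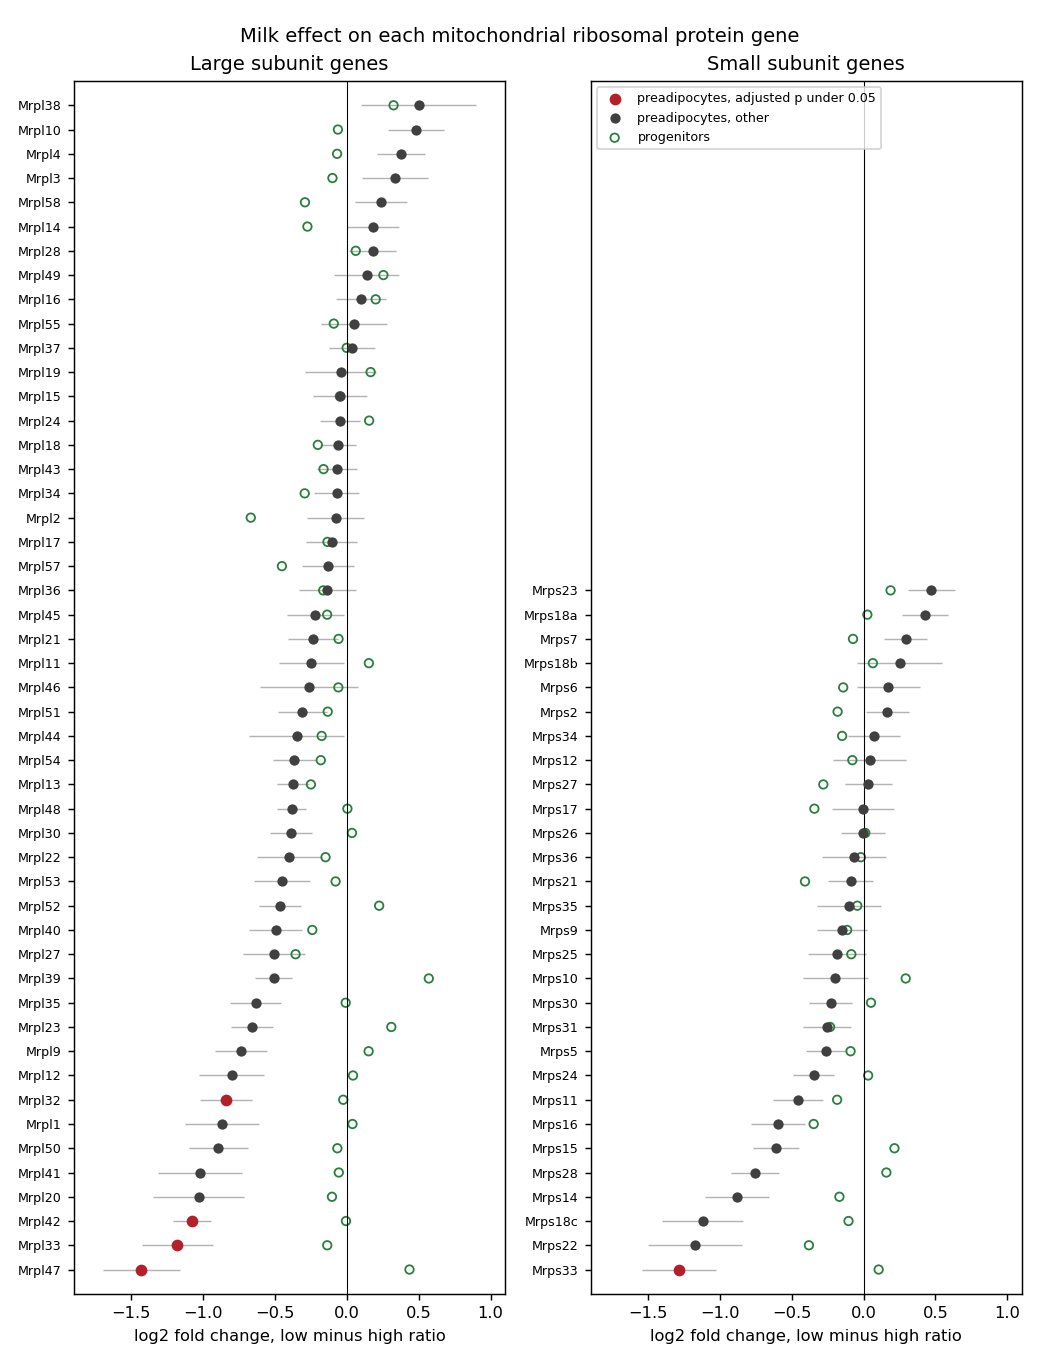
Log2 fold change, low-ratio minus high-ratio milk, of each large (left) and small (right) subunit gene: filled points are preadipocytes with bars for 1 SE, red where the adjusted p is under 0.05, and open circles are progenitors. The red points are 4 large subunit genes and Mrps33, and Mrpl47 has the lowest value, -1.43.

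In the large subunit, 38 of 49 genes had lower values on low-ratio milk, 4 passed the test and the median was -0.26. Mrpl42, a protein found only in mitochondria, lies at chr10:95480805-95501940 on the minus strand (GRCm38). Its normalized counts were 1796, 1668 and 1466 in the high-ratio libraries (libraries 1015, 1017 and 1019) against 736.7, 858.1, 679.4 and 848.8 in the low-ratio libraries (108, 114, 119 and 133). Every low-ratio library was far below the lowest high-ratio library. The mean fell from 1644 ± 166 (SD, n = 3) to 781 ± 87.2 (SD, n = 4). The log2 fold change was -1.07 ± 0.13 (SE), at an adjusted p of 0.0204.

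Mrpl47, the counterpart of a bacterial protein near the exit of the nascent chain, lies at chr3:32725397-32737605 on the minus strand. It had 320.1, 262.2 and 197.5 normalized counts across the high-ratio libraries against 133.2, 90.26, 75.51 and 85.51 in the low-ratio libraries. The groups did not overlap, and the log2 fold change of -1.43 ± 0.27 (SE, adjusted p 0.0376) was the lowest of the 78. The exons of Mrpl47 share 453 bases with Actl6a and 530 bases with Ndufb5, and with the strand setting of the counting not given, reads from these stretches cannot be assigned to 1 gene with certainty. Ndufb5 also passed the test, with a log2 fold change of -0.71 and an adjusted p of 0.0484.

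Mrpl33, a small bacterial-type protein, lies at chr5:31596935-31664384 on the plus strand. Its normalized counts were 1646, 1170 and 825.6 in the high-ratio libraries against 661.7, 521, 406.6 and 501.2 in the low-ratio libraries. Library 1019 was the lowest of the high-ratio group, yet above all 4 low-ratio libraries. The log2 fold change was -1.18 ± 0.25 (SE) with an adjusted p of 0.0468. Mrpl32, whose precursor is cut by the m-AAA protease of the inner membrane before it joins the ribosome, lies at chr13:14608184-14613165 on the minus strand. It had 642, 512.4 and 431.5 normalized counts across the high-ratio libraries against 292.3, 277.7, 262.3 and 333.5 in the low-ratio libraries. The groups were again apart, at -0.84 ± 0.18 (SE, adjusted p 0.0479), while its neighbour Psma2 had -0.25 (adjusted p 0.387).

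In the small subunit, 20 of 29 genes had lower values, 1 passed the test and the median was -0.15. That gene was Mrps33, found only in mitochondria, at chr6:39801804-39810988 on the minus strand. It had 1303, 943.3 and 629.3 normalized counts across the high-ratio libraries against 471.2, 413.1, 326.8 and 316.1 in the low-ratio libraries. The groups did not overlap, and the high-ratio group was spread over a wide range. Its log2 fold change was -1.28 ± 0.26 (SE) with an adjusted p of 0.0437. A processed pseudogene, Gm5776, matches the gene at 99.7% over 321 bases, so reads may have been split between them. With both summed the log2 fold change was -1.20 and the adjusted p 0.0544, past the threshold no longer.

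**Figure D3:**
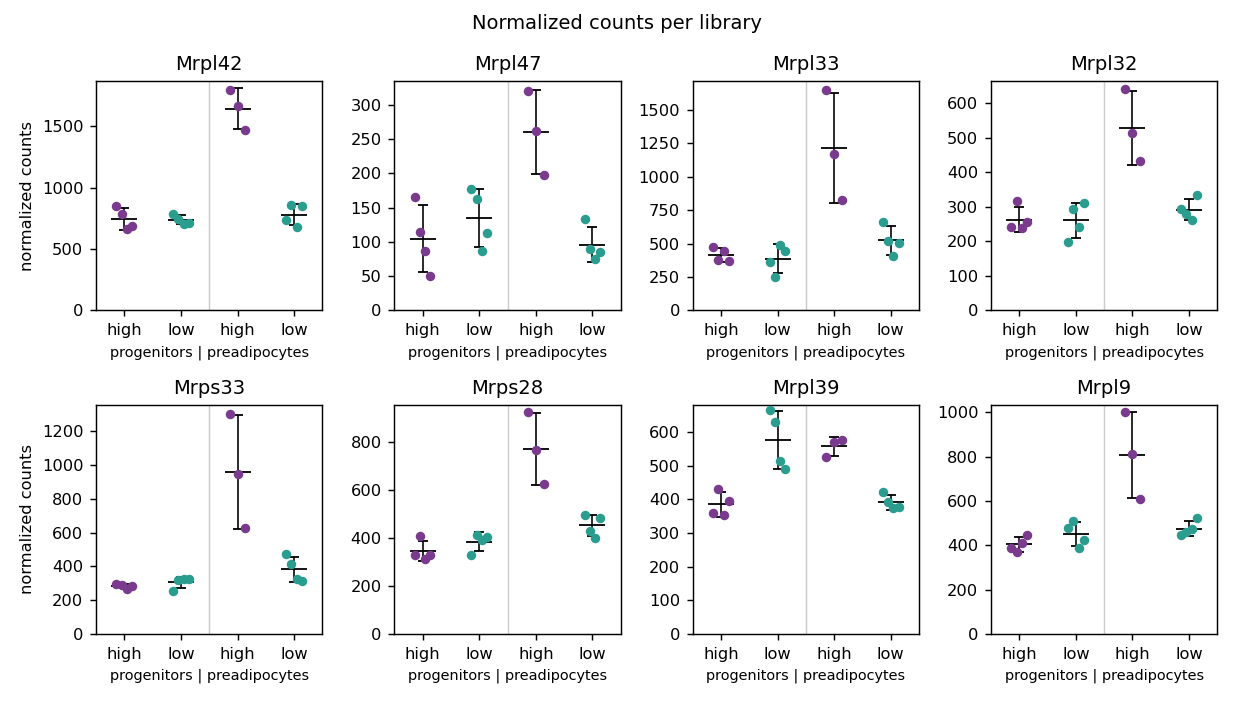
Normalized counts (linear axes from 0) per library for 8 members called in preadipocytes or in the interaction, by milk within progenitors and preadipocytes; each point is a library, and black bars are the mean and SD. For Mrpl42 the preadipocyte libraries lie at 1466 to 1796 on high-ratio milk and at 679.4 to 858.1 on low-ratio milk.

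The 5 calls depended on which libraries were in the fit. Each passed in 1 of the 7 fits that left out a library, the one without high-ratio library 1019, where 15 members passed, and in the other 6 fits 0 members passed. The share of all genes that passed in these fits is not given here, so the counts do not set members apart from other genes. The adjusted p of Mrpl42 ranged from 0.00741 to 0.0777 over these fits, and its log2 fold change stayed between -1.15 and -1.01. With the trend of fold change on GC content and transcript length removed, 0 members passed in either direction (0.0126% of all genes lower, 0.0504% higher). There, 27 were lower at an unadjusted p under 0.05 (against 8.25% of all genes lower and 11.3% higher), and Mrpl42 had -0.83 (adjusted p 0.0623).

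Behind the threshold came a group of members with values of similar size. Mrps28 had a log2 fold change of -0.76 (adjusted p 0.0519), and its normalized counts of 921.8, 763.6 and 624.2 on high-ratio milk lay above 495.8, 430.1, 399.5 and 480.8 on low-ratio milk. Mrpl50, found only in mitochondria, had -0.89 (adjusted p 0.0556), and Mrpl9, a bacterial-type protein, had -0.74 (adjusted p 0.0635). Mrpl23, a protein at the exit tunnel, had -0.66 (adjusted p 0.0529). Its processed pseudogene Mrpl23-ps1 is identical over 540 bases and was listed at a mean of 597 normalized counts against 417 for Mrpl23 itself. Summed, the pair had -0.29 (adjusted p 0.260), so the size of the Mrpl23 difference depends on how reads were divided between them. In all, 20 members have such a copy at 95% identity or more over at least 200 bases, and 15 share exon sequence with an overlapping gene.

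In the small subunit the next values belonged to Mrps14 (-0.88, adjusted p 0.0706), Mrps15 (-0.61, adjusted p 0.0802) and Mrps22 (-1.17, adjusted p 0.0890), the last a gene in which human variants cause mitochondrial disease. Mrpl12, a stalk protein also reported to bind the mitochondrial RNA polymerase, had 1817, 1508 and 1008 normalized counts across the high-ratio libraries against 1075, 780.8, 676.2 and 736.2 in the low-ratio libraries. The groups overlapped through libraries 1019 and 108, and the log2 fold change was -0.80 (adjusted p 0.0925).

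The 3 Mrps18 paralogs, which all descend from 1 bacterial protein, had unlike values. Mrps18c had 732, 472 and 338.3 normalized counts across the high-ratio libraries against 242.5, 231.9, 165.1 and 272 in the low-ratio libraries, which gives -1.12 ± 0.28 (SE, adjusted p 0.0701). Mrps18a had 536.8, 710.1 and 472.8 in the high-ratio libraries against 817.2, 782.7, 702.8 and 735.9 in the low-ratio libraries, at 0.42 ± 0.16 (SE, adjusted p 0.174). Mrps18b overlapped widely between milks, at 0.25 ± 0.30 (SE, adjusted p 0.658). Thus 1 paralog lay lower with groups apart and the other two did not, but none passed the test and no test set them against each other.

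Members with values above 0 were 20 of 78 (54.1% of all genes). Those at an unadjusted p under 0.05 were Mrps23, Mrps18a and Mrpl10, and those with every low-ratio library above every high-ratio library were Mrps23, Mrpl4, Mrps7 and Mrps2. Several genes with particular roles did not pass the test. Mrps12, at the decoding centre, had 0.04 (adjusted p 0.941), and Mrps34 had 0.07 (adjusted p 0.850). Mrpl58, a peptidyl-tRNA hydrolase built into the large subunit, had 0.24 (adjusted p 0.472). Mrpl44, with an RNase III-like fold, had -0.35 (adjusted p 0.569), Mrps30 had -0.23 (adjusted p 0.400) and Mrps36 had -0.07 (adjusted p 0.881). The abundant Mrpl52 had -0.46 (adjusted p 0.119) and Mrps21 had -0.09 (adjusted p 0.773).

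By descent, the median was -0.17 over the 48 genes with a bacterial counterpart, of which 35 had lower values and 3 passed, and -0.26 over the 29 mitochondrial ones, of which 22 had lower values and 2 passed. Within the large subunit these medians were -0.19 and -0.35, and within the small subunit -0.17 and -0.14.

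The libraries of a group differed in order. The members together made up 1386, 1254 and 1033 per M normalized counts in high-ratio libraries 1015, 1017 and 1019, and 1102, 937.6, 827.9 and 910.9 in low-ratio libraries 108, 114, 119 and 133. The summed groups therefore overlapped, since low-ratio library 108 lay above high-ratio library 1019. Library 1019 was the lowest of its group in 58 of 78 members (36.8% of all genes), and library 119 the lowest of its group in 51 (30.7% of all genes). The order 1015 above 1017 above 1019 was followed by 36 members (46.2%), against 22.3% of all genes.

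The share of normalized counts from mitochondrially encoded genes followed the members' sum among the high-ratio libraries. It was 6.35%, 5.83% and 4.54% on high-ratio milk in that order, and between 2.50% and 3.03% on low-ratio milk, with the groups apart. Among the low-ratio libraries the order was another, since 108, with the highest sum, had 2.61% and 119, with the lowest, had 2.73%. Depth was 14, 69.2 and 22.9 M reads in the high-ratio libraries and 35.1 to 49.6 M in the low-ratio ones. The part of the mitochondrial share and of depth in the members' values was not tested. With the mitochondrially encoded genes left out of the scaling, 7 members passed the test in place of 5, and the share of all genes in that fit is not given here.

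**Figure D4:**
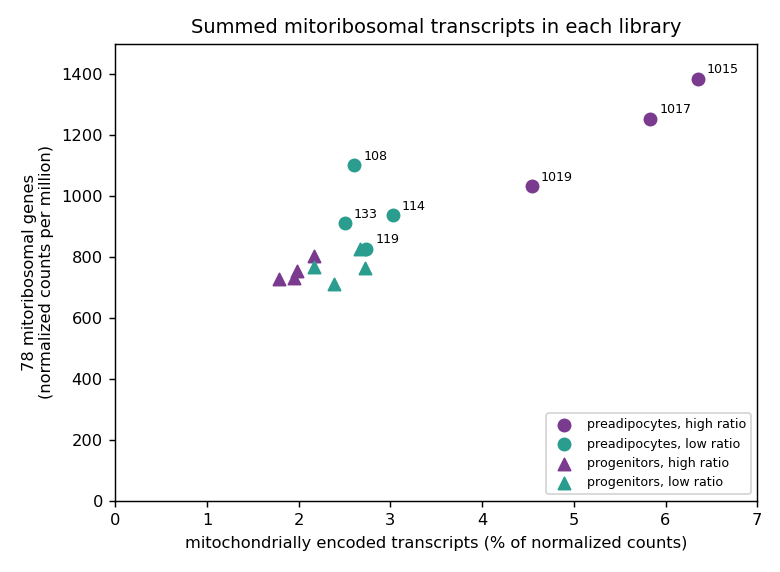
Summed normalized counts of the 78 genes per M normalized counts against the share of mitochondrially encoded transcripts in percent; each point is a library, circles are preadipocytes (with library numbers), triangles progenitors, purple high-ratio and green low-ratio milk. High-ratio preadipocytes lie at 4.54% to 6.35% and 1033 to 1386 per M, and progenitors at 712.5 to 826.5 per M.

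Fold changes also moved with base composition. Split into 3 groups of 26 by GC content, the members had medians of -0.38 (GC 40.64% to 48.82%), -0.22 (49.61% to 53.81%) and -0.07 (53.88% to 60.78%). All 5 members that passed were in the group with the lowest GC. Spearman's rho between GC content and fold change was 0.39 across the 78 members and 0.26 across all genes, as a description of genes that share the same libraries. With the trend over all genes removed, rho was 0.24 across members and the medians of these groups were -0.20, -0.19 and -0.14, with -0.19 over the large and -0.08 over the small subunit against 0.05 over all genes. The part of base composition in single members' values beyond that fit was not tested.

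**Figure D5:**
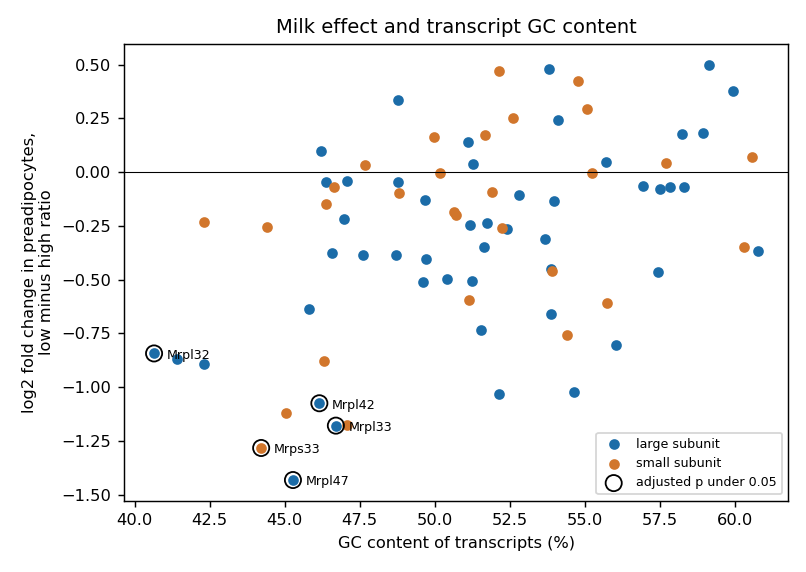
Log2 fold change in preadipocytes, low-ratio minus high-ratio milk, against the GC content of each gene's transcripts in percent; blue points are large and orange points small subunit genes, and black rings mark an adjusted p under 0.05. The 5 ringed genes lie within the 26 with the lowest GC content, 40.64% to 48.82%.

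In progenitors 0 of the 78 members passed the test with limma, as did 0 of all 15973 genes (background 0% in either direction). At an unadjusted p under 0.05, 3 members were lower (3.11% of all genes) and 1 was higher (3.77% of all genes). The medians were -0.06 over the large and -0.09 over the small subunit, beside 0.00 over all genes, and 52 of 78 members had values below 0 (50.5% of all genes) and 26 above (49.5%). The groups did not overlap in 3 members toward lower values (2.02% of all genes) and in 1 toward higher (2.03%). Without low-ratio library 108, which was the lowest of its group in 38 members, the median of the large subunit was 0.03.

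The member with the smallest p in progenitors was Mrpl39, found only in mitochondria. It had 359, 431.2, 352.9 and 395.2 normalized counts across the high-ratio libraries (1015, 1017, 1018 and 1019) against 664.7, 630.2, 513.9 and 489.1 in the low-ratio libraries (108, 114, 119 and 133). The groups did not overlap, and the log2 fold change was 0.57 ± 0.15 (SE) with an adjusted p of 0.583. In preadipocytes its low-ratio libraries lay below the high-ratio ones, with 525.3, 570.4 and 574.5 normalized counts across the high-ratio libraries against 421.3, 391.1, 374.2 and 376.6 in the low-ratio libraries.

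The other members named in progenitors by their p did not pass either. Mrpl2, in the peptidyl transferase region of the large subunit, had -0.67 (adjusted p 0.652), Mrpl57 had -0.45 (adjusted p 0.698) and Mrps16 had -0.35 (adjusted p 0.723). Mrpl40, Mrpl58, Mrpl34, Mrps17, Mrps21, Mrps22 and Mrps27 had values between -0.41 and -0.24, and Mrps2 had -0.18. Of the 5 genes that fell in preadipocytes, Mrpl42 had -0.01, Mrpl32 -0.03, Mrpl33 -0.14, Mrps33 0.10 and Mrpl47 0.44 in progenitors, with adjusted p-values between 0.816 and 0.992.

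The difference in milk effect between the populations was tested as an interaction over all 15 libraries. The value in preadipocytes lay below that in progenitors for 5 members at an adjusted p under 0.05 (6.41%, against 1.65% of 15354 genes) and above it for 0 (against 0.625%). At an unadjusted p under 0.05 it lay below for 21 members (8.62% of all genes) and above for 3 (8.99%). By value alone, 50 members lay below 0 (45.9% of all genes) and 28 above (54.1%). Mrpl42 differed by -1.07 ± 0.17 (SE, adjusted p 0.0102) and Mrpl39 by -1.08 ± 0.18 (SE, adjusted p 0.0142). Mrpl39 had -0.51 in preadipocytes and 0.57 in progenitors, and neither had passed alone. Both Mrpl42 and Mrpl39 passed in all 15 fits that left out 1 library. With the library number, which the populations share, as a block in the fit, neither passed (adjusted p 0.0553 and 0.0674).

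Mrps33 differed by -1.39 ± 0.29 (SE, adjusted p 0.0257), Mrps28 by -0.91 ± 0.21 (SE, adjusted p 0.0368) and Mrpl9 by -0.89 ± 0.22 (SE, adjusted p 0.0457). In progenitors these 3 had 0.10, 0.16 and 0.15, so that, as for Mrpl39, the values of the populations lay on opposite sides of 0. The progenitor values were small beside their SEs of 0.14, 0.15 and 0.14 (adjusted p 0.888, 0.832 and 0.827). Summed with its copy Gm5776, Mrps33 had -0.03 in progenitors, on the same side of 0 as in preadipocytes. In the interaction, Mrps33, Mrps28 and Mrpl9 passed in 8, 4 and 2 of the 15 fits that left out 1 library. The number of members that passed was 12 without preadipocyte library 1019 and 5 without progenitor library 119. It was 4 without preadipocyte 108 or progenitor 1015, 108 or 133, and 3 or 2 without any of the other 9 libraries. The shares of all genes in these fits are not given here. With the GC and length trend removed 3 passed, all below 0 (3.85%, against 0.371% of all genes). Of the 5, Mrpl42 and Mrps33 had also passed in preadipocytes. The largest difference among the members that missed the threshold was that of Mrpl47, -1.87 ± 0.50 (SE, adjusted p 0.0643). The median difference over the large subunit was -0.18, beside 0.05 over all genes. For the small subunit it was -0.05 and changed sign under the GC trend removal, to 0.04, so no direction is given.

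The remaining genes of mitochondrial translation were set beside the members in preadipocytes. Of the 5 proteins of the mitochondrial ribosome that carry other names, 0 passed, and the median was -0.29. Chchd1, a small subunit protein, had 2301, 1575 and 984.3 normalized counts across the high-ratio libraries against 757, 645.1, 328.6 and 566.6 in the low-ratio libraries. Its log2 fold change was -1.47 (adjusted p 0.0567). The groups were apart, as were those of Aurkaip1 (-0.76, adjusted p 0.0556), while Dap3 had 0.06 and Ptcd3 had 0.34.

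Assembly and ribosomal RNA modification factors were centred near 0, with 0 of 26 past the test and a median of -0.06. The smallest p-values there belonged to Mterf4 (-1.18), which guides a ribosomal RNA methyltransferase, and to Noa1 (0.77) and Malsu1 (-0.64). The enzymes of mitochondrial aminoacyl-tRNA synthesis had 0 of 20 past the test and a median of 0.01, with the smallest p-values at Iars2 (0.36), Gatb (0.88) and Nars2 (1.02). Among 15 translation factors and mRNA-binding proteins 1 passed. Slirp, the partner of Lrpprc in keeping mitochondrial messenger RNAs stable, had 1006, 845 and 514.7 normalized counts across the high-ratio libraries against 372.3, 291.3, 220.4 and 332.1 in the low-ratio libraries. With a log2 fold change of -1.34 (adjusted p 0.0424) it was lower under low-ratio milk, and Lrpprc itself had 0.58 (adjusted p 0.268). With the GC and length trend removed, 0 of the 15 passed, against 0.0126% of all genes lower and 0.0504% higher.

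The RNAs made inside the organelle had lower values too. Of the 13 mitochondrially encoded protein genes, 10 fell in preadipocytes, with a median of -1.01. The ribosomal RNAs of the small and large subunit, mt-Rnr1 and mt-Rnr2, had -0.75 (adjusted p 0.0988) and -1.02 (adjusted p 0.0578), with groups apart in both. With the GC and length trend removed, 0 of the 13 passed, against 0.0126% of all genes lower and 0.0504% higher. At an unadjusted p under 0.05, 5 of the 13 were lower there (38.5%, against 8.25% of all genes). Their median was -0.32, with 2 values above 0, and 1 ribosomal RNA had -0.26 and the other 0.03. The libraries were made from mRNA, so ribosomal RNA values describe what that selection left. In progenitors 12 of the 13 protein genes had values above 0, with a median of 0.39, and 0 passed. In the interaction 10 of 13 passed, as did mt-Rnr2 (-1.40, adjusted p 0.0280). With the trend removed, 1 of 13 and 0 of the 2 ribosomal RNAs passed there, against 0.371% of all genes lower. The median of the 13 went from -1.37 to -0.60.

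For scale, cytosolic ribosomal proteins had 28 of 82 tested genes lower in preadipocytes (34.1%) with a median of -0.64, and nuclear-encoded respiratory chain subunits had 16 of 83 (19.3%) with a median of -0.25. The members' own values were 6.41% and -0.22, and the lists were not tested against each other. With the GC and length trend removed, 0 genes of any of these lists passed in preadipocytes, against 0.0126% of all genes lower and 0.0504% higher. At an unadjusted p under 0.05, 62.2% of the cytosolic ribosomal genes were still lower in that fit, with a median of -0.53. For respiratory chain subunits these were 38.6% and -0.14, and for the members 34.6% and -0.17, against 8.25% of all genes lower.

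In the authors' deposited table, with an adjusted p under 0.05, 23 members were lower on low-ratio milk in preadipocytes, 16 large and 7 small, and 0 were higher, against 7.39% of all genes lower and 4.46% higher. The authors' deposited table included all 5 members that passed with limma. In progenitors the authors' deposited table called 1 member higher, Mrpl39, against 0.351% of all genes, and 0 lower, against 0.23%.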

How the data were processed

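RNA of sorted subcutaneous adipocyte precursors was sequenced from 15 libraries. Per the labels' protocols, the kit was NuGEN's Universal Plus mRNA. Salmon 0.14.2 and DESeq2 1.28.1 are listed among the tools in the submitters' processing notes, with GRCm38 and mm10 as builds. No source used here gives the annotation release or the strand setting. The deposited values are on the log2-like scale of a variance stabilizing transformation, normalized by the authors within each population, with a floor at 7.70 in progenitors and 7.12 in preadipocytes. The deposited tables also hold the authors' log2 fold changes and p-values (raw and adjusted).

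The transformation was inverted to normalized counts. Recomputed fold changes differed from the authors' by a median of 0.000751 (log2) in progenitors and 0.00304 in preadipocytes at means of at least 100. For each table, limma 3.58.1 (R 4.3.3) compared the milks on the scale log2(normalized count + 1). Its trend and robust options were on, and p-values were adjusted by Benjamini-Hochberg (threshold 0.05) over all genes with a mean of at least 10. This scale understates changes of genes with few reads. The interaction was fitted over all 15 libraries. The fits were tested on simulated data. Names, coordinates, GC content and length (medians over transcripts) came from GENCODE M21, which matched 23322 of 23347 and 23096 of 23118 gene IDs. Copies were found with BLAST+ 2.17.0.

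The members and lists were chosen with earlier results of these data known. The lists of cytosolic ribosomal proteins and respiratory chain subunits were drawn by symbol, and the sums with pseudogene copies were added, after seeing the data. Named members were those past the threshold, up to 6 per subunit with the smallest p, the 3 highest and 3 lowest per subunit in level per kb, and a set of genes with known roles; Mrps23, Mrpl10, Mrpl4, Mrps7, Mrpl19 and the neighbour pairs were named after their values were seen. The labels do not say whether equal library numbers in the populations come from the same animals. Same-number correlations of deviations ran from -0.059 to 0.091. They rest on deviations within groups of 3 or 4 libraries and do not settle the pairing. The main fit did not treat the numbers as pairs. Alternatives were other scalings, filters, lengths and model options, the removal of GC and length trends, summed copies and leaving out each library.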

Additional observations from a re-analysis of the deposited data

Results flagged for a closer look

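In 120 groups of 4 libraries looked at, 8 had a library far from the others by Dixon's test, which chance gives in about 1 of 20 groups. In preadipocytes on low-ratio milk, Mrpl20 had 872.2 normalized counts in library 108 against 435.4 to 473.9 in the others. In the same group Mrpl50 had 585 in library 114 against 441.1 to 456.8, Mrps31 had 163 in library 119 against 189.1 to 193.2, and Mrps36 had 339.3 in library 133 against 206.6 to 227.6. In progenitors on low-ratio milk, Mrps12 had 410.4 in library 119 against 309 to 321.1, Mrps18c had 215.3 in library 114 against 149.6 to 159.6, and Mrps33 had 257.1 in library 108 against 316.5 to 325.6. In progenitors on high-ratio milk, Mrps17 had 663.7 in library 1019 against 634.8 to 638.2. The 8 flags fell on 8 members and on 5 library numbers.

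By limma's interaction term, 5 members passed an adjusted p under 0.05 for a lower milk effect in preadipocytes (6.41%, against 1.65% of all genes). They were Mrpl42 (-1.07), Mrpl39 (-1.08), Mrps33 (-1.39), Mrps28 (-0.91) and Mrpl9 (-0.89), all log2 differences. With the library number as a block, 0 members passed. Mrps33, Mrps28 and Mrpl9 passed in 8, 4 and 2 of the 15 fits that left out 1 library.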

How the results depend on the processing

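The 5 members called in preadipocytes became 0 with the GC and length trend removed, 0 without the trend and robust options, 3 on the deposited values and 9 with a filter at a mean of 100, and 0 to 15 when 1 library was left out. The 5 interaction calls became 3 with the GC and length trend removed, 3 with no filter, 3 without the trend and robust options and 2 to 12 when 1 library was left out. Apart from the GC and length trend removal, the shares of all genes that passed under these settings are not given here. Library numbers were shared between populations. Same-number correlations of deviations ran from -0.059 to 0.091, and among libraries on the same milk only 1015 and 133 correlated best with their own number. These correlations rest on groups of 3 or 4 libraries and do not settle the pairing. With the number as a replicate block the interaction calls were 0 (adjusted p 0.0553 for Mrpl42 and 0.0674 for Mrpl39), and 0 with the block and the trend removal together. The progenitor median of the large subunit ran from -0.117 to 0.027 when 1 library was left out. With the longest transcript, median levels per kb were 210.8 (large) and 164.6 (small) in progenitors and 298.8 and 171.4 in preadipocytes. The block and left-out fits use fewer degrees of freedom than the main fit, and the cause of these moves was not tested.

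No value that passed the test changed sign. Uncalled values near 0 did. With the GC and length trend removed, Mrpl42 (0.0089) and Mrps36 (0.0001) in progenitors, Mrps21 (0.135), Mrps36 (0.212) and Mrps34 (-0.0012) in preadipocytes and Mrps36 in the interaction (0.212, and 0.196 with the replicate block) turned. Without mitochondrially encoded genes in the scaling, Mrpl42 in progenitors (0.008) and Mrps12 in preadipocytes (-0.0182) turned. Summed with copies, Mrps36 was 0.0806 in preadipocytes and 0.223 in the interaction, and Mrps33 was -0.0344 in progenitors. When 1 library was left out, progenitor ranges that crossed 0 were Mrpl1 -0.0983 to 0.178, Mrpl42 -0.0622 to 0.0576, Mrps18a -0.0104 to 0.0761, Mrpl12 -0.0358 to 0.119, Mrps18b -0.101 to 0.172, Mrps36 -0.107 to 0.0732, Mrpl33 -0.267 to 0.0606 and Mrpl44 -0.351 to 0.0746. In preadipocytes they were Mrps21 -0.191 to 0.011, Mrps12 -0.123 to 0.243, Mrps18b -0.0093 to 0.460 and Mrps36 -0.233 to 0.0162. In the interaction they were Mrps12 -0.0447 to 0.321, Mrps18b -0.0736 to 0.395, Mrps36 -0.214 to 0.0386 and Mrpl44 -0.425 to 0.0744.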
